A study of Mus musculus with 22 samples.

Results

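A set of 32 genes that mark the vessels of the brain was followed in forebrain RNA of *Prdm16* KO and control mouse embryos at E13.5. The genes were taken from the count table by their symbols, and all 32 were found among its 24421 genes. They comprise 25 endothelial and barrier genes (12 receptors and surface proteins, 6 transcription factors, 2 angiopoietins and 5 barrier and transport genes) and 7 pericyte genes. The rule used their symbols alone. The KO embryos were homozygous mutants. The study describes 2 gene-trap null alleles, *Prdm16* cGT and cGTreinv, kept by outcrossing to FVB/NJ, and does not say which of them gave these libraries. By their genotype label the controls were heterozygous or wild-type littermates, whereas their titles, the columns of the table and the methods call them wild type, so whether any of them carries 1 mutant allele is not settled. The null alleles are constitutive, so vessels carry them as well as neural cells. The 3 KO libraries (F727, F728 and F731) and 3 control libraries (F722, F724 and F725) are named here by the animal number in the count table. Each is taken to come from 1 embryo by that number, whereas the methods speak only of biological replicates. The labels give the tissue as forebrain and the RNA as poly(A), whereas the methods name dissected cortex and a total RNA kit.

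Blood vessels grow into the embryonic forebrain from the plexus that surrounds it, drawn by VEGF from neural progenitors. Their endothelial cells are joined by tight junctions, carry nutrient transporters and are covered by pericytes, which together make the blood-brain barrier. Wnt ligands from the neural tissue induce barrier genes, the angiopoietins act on the TIE receptors, and PDGF-B from the endothelium recruits pericytes through PDGFRB. *Prdm16* encodes a zinc-finger regulator of transcription that is expressed in radial glia, and is also known from arterial endothelium.

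The depth was 16638433 counts in KO F731 and 28569526 to 43066648 in the other 5 libraries. The 32 genes together took 0.0320 to 0.0397% of the counts. The targeted gene was lower in every KO library, at 6.58 to 9.60 CPM of *Prdm16* against 37.8 to 58.2 CPM in control (CPM are counts scaled to the size of the library, with the TMM factors of edgeR). KO F731 differed in kind from the rest. It held counts for 22991 genes, against 17795 to 18320 elsewhere, and 7.39% of its counts fell on the ribosomal RNA gene *Rn45s*, against 0.224 to 2.43%. The counts, medians and intervals of the set are therefore given with and without it, and so are the log2 fold changes of several single genes.

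None of the 32 genes passed the test of KO against control. Of the 31 that passed the filter on low counts, 0 had an adjusted p under 0.05 in edgeR, against 0% of the 15027 genes tested, and the lowest adjusted p was 0.863. The same held without KO F731, and DESeq2 called 0 of the 32 with or without KO F731, while it called 18 of 15651 genes (0.115%) with it and 33 of 16044 (0.206%) without it. Over 6 libraries edgeR did not call the targeted gene *Prdm16* either, at a ratio of 0.164 and an adjusted p of 0.0536. In DESeq2 its adjusted p was 7.09e-24. The lack of calls in edgeR is therefore not evidence of no change. At an unadjusted p under 0.05 edgeR picked 1 of the 31, *Angpt1*, against 1.92% of all genes (1.26% higher in KO and 0.665% lower). Without KO F731 it picked *Angpt1*, higher, and *Sox17*, lower, against 2.63% of all genes (1.44% higher and 1.19% lower). The study's cutoff of an unadjusted p under 0.05 with a fold over 1.5, which it used with DESeq2, was applied here to edgeR. It took 0 of the 31, against 1.02% of all genes. The median log2 fold change was 0.05 for the endothelial and barrier genes, with 16 above 0 and 9 below, and 0.04 for the pericyte genes, with 4 above and 2 below. Over all tested genes the median was 0.00, and 49.2% were above 0. Without KO F731 the medians moved to -0.08 and -0.18, with 4 above 0 and 21 below among the endothelial and barrier genes and 0 above and 6 below among the pericyte genes, against 50.8% of all genes below 0. The sign of both medians thus turned with KO F731, and it also turned, to -0.05 and -0.11, when control F722 was left out. In limma-voom with sample quality weights the medians were -0.14 and -0.29. In a whole forebrain, fewer cells of a type and less RNA per cell cannot be told apart.

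**Figure D1:**
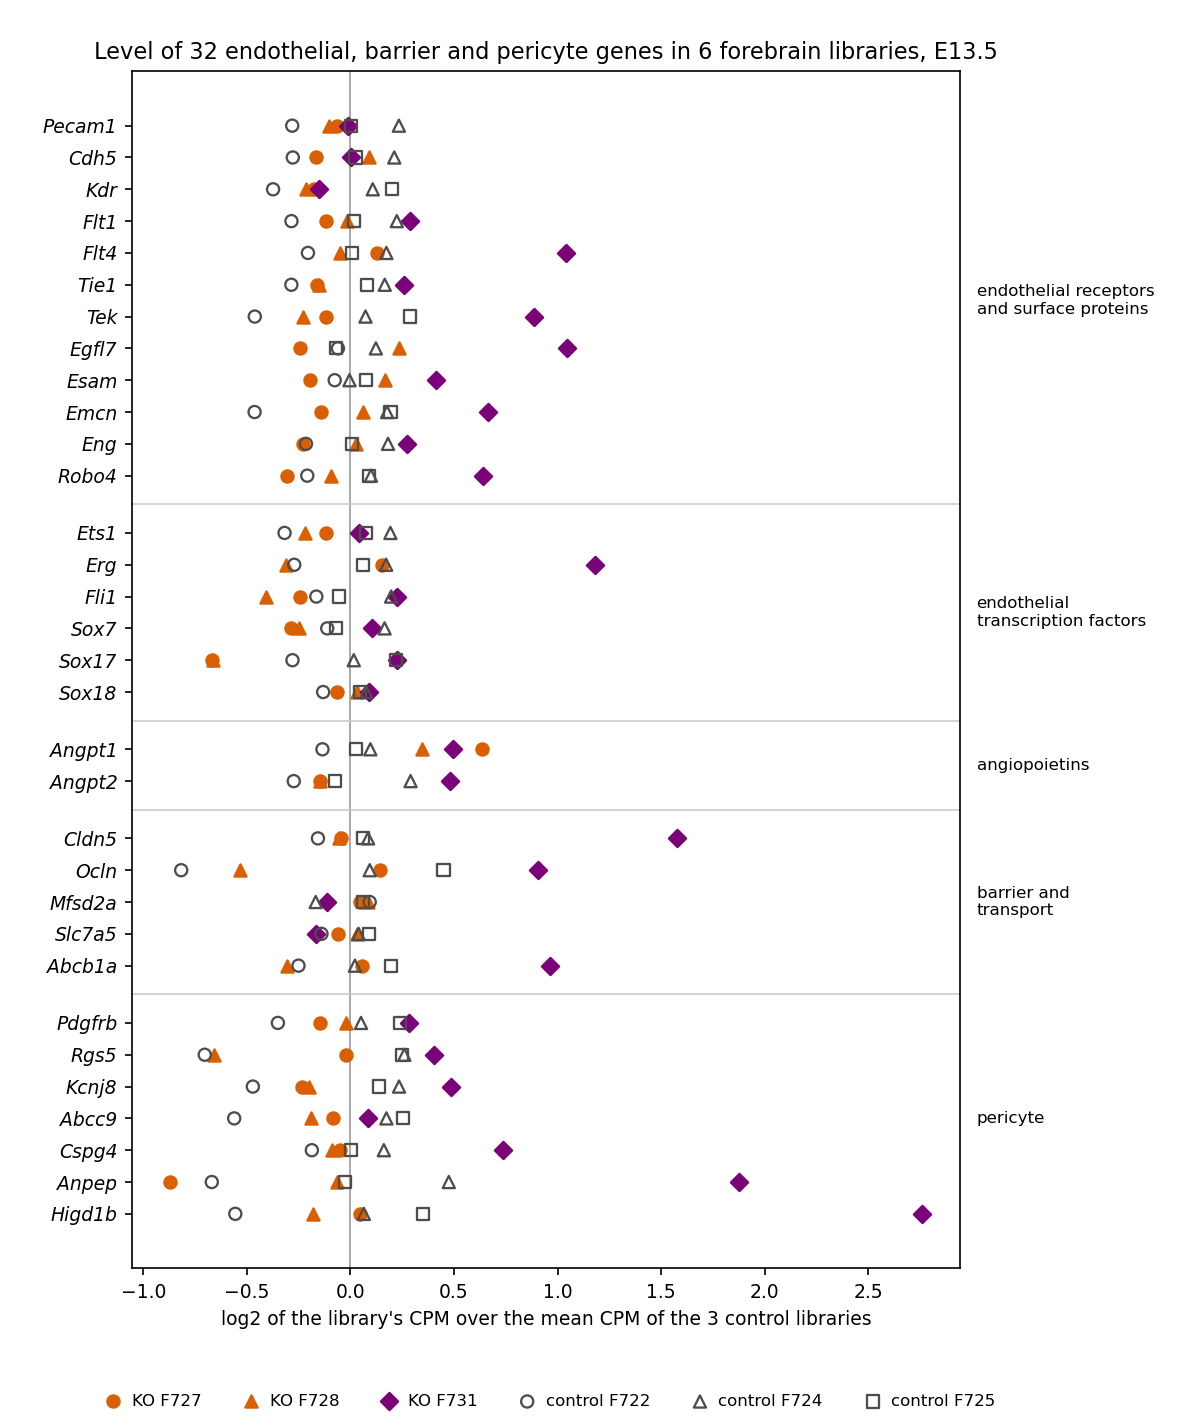
Each point is the log2 ratio of a library's CPM to the mean CPM of the 3 control libraries, for the 32 genes grouped by role (filled, KO; open, control). KO F731 (diamonds) lay highest for 22 of the 31 tested genes, and *Angpt1* was the only gene for which all 3 KO points lay above all 3 control points.

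The 95% intervals of the fold changes were taken gene by gene, without adjustment over all genes. They do not mark the size of change that the adjusted test would have called. The interval of *Prdm16*, from 0.115 to 0.234, excluded 1 although its adjusted p in edgeR was 0.0536. Over 6 libraries the interval stayed within a fold of 2 in either direction for 22 of the 31 genes, and within a fold of 1.5 for 12. Without KO F731 the corresponding numbers were 27 and 15, and the upper end was below a fold of 2 for all 31. The tightest intervals belonged to the well-expressed transporter genes, and the widest, from 0.521 to 4.92, to *Anpep*.

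**Figure D2:**
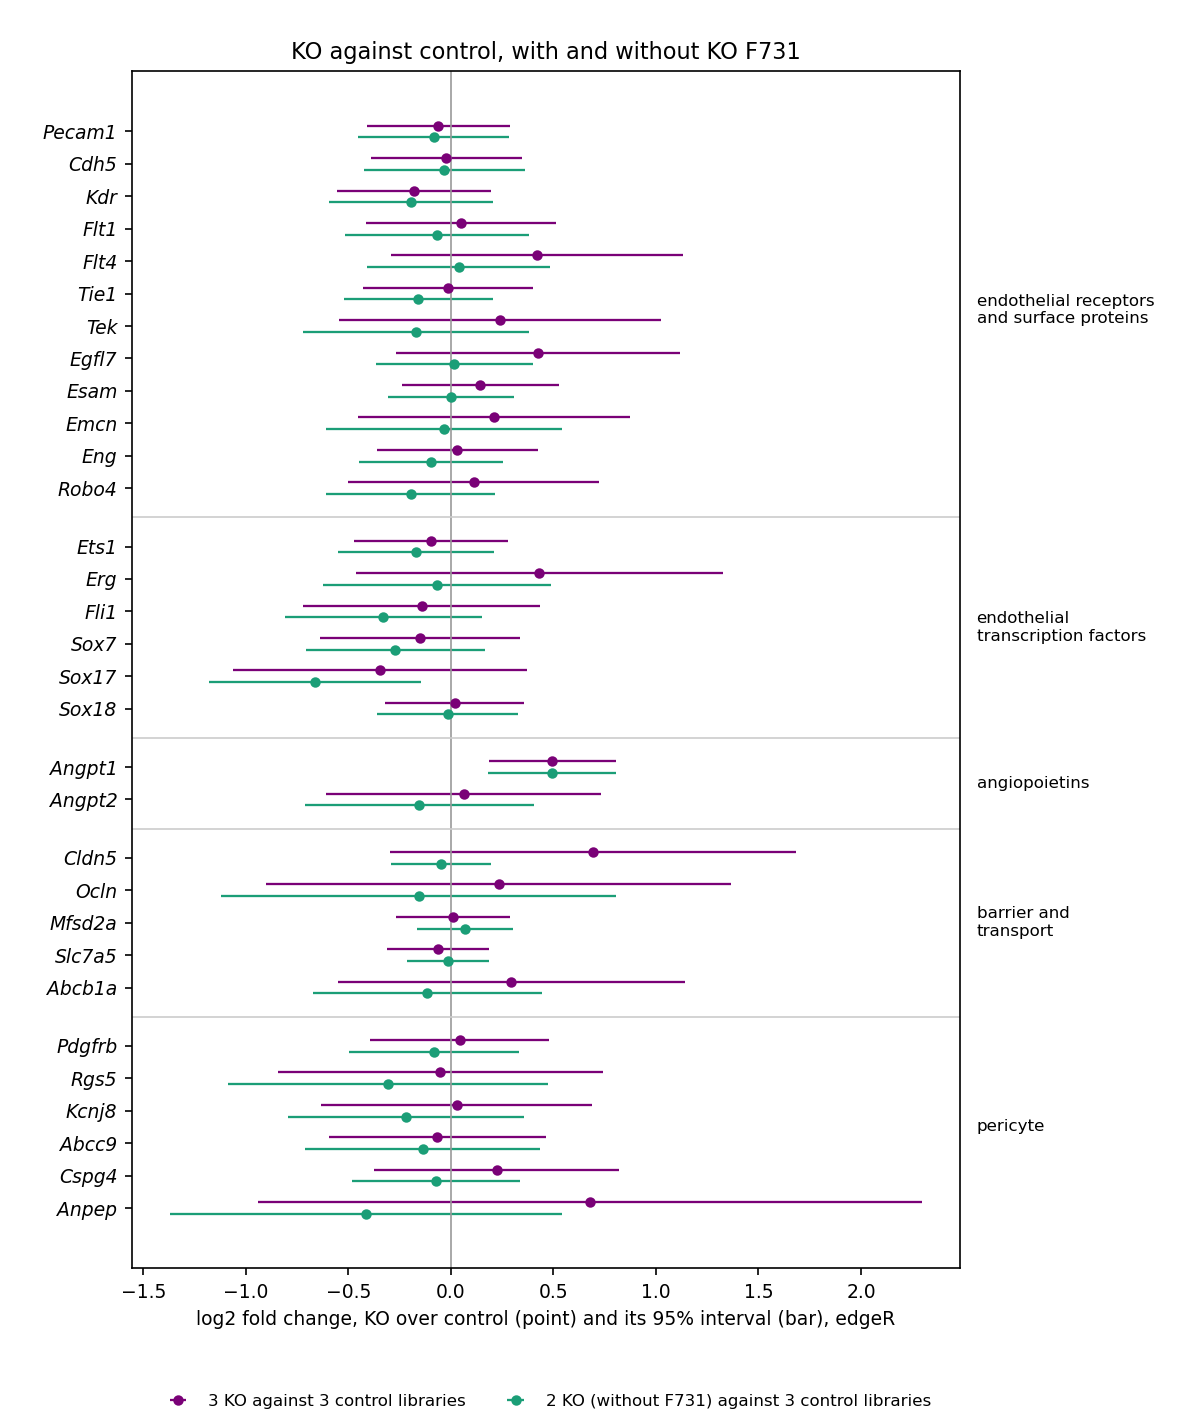
Log2 fold change of KO over control (points) with its 95% interval (bars) from edgeR for the 31 tested genes, over 6 libraries (purple) and without KO F731 (green). The purple interval excluded 0 for *Angpt1* alone, and the green one for *Angpt1* and *Sox17*.

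None of the 12 endothelial receptors and surface proteins passed the test, with log2 fold changes from -0.18 to 0.43 over 6 libraries (8 above 0, 4 below) and from -0.20 to 0.04 without KO F731 (2 above, 10 below). *Pecam1*, which encodes the junctional adhesion protein CD31, stood at 15.6 (F727), 15.2 (F728) and 16.1 CPM (F731) in KO and at 13.4 (F722), 19.1 (F724) and 16.3 CPM (F725) in control, the order kept below. The KO libraries all lay inside the range of the controls, and the ratio of KO to control was 0.959 (95% interval 0.752 to 1.22). *Cdh5*, the gene of VE-cadherin, the adhesion protein of endothelial junctions, gave 12.1, 14.5 and 13.6 CPM in KO and 11.2, 15.8 and 13.9 CPM in control, a ratio of 0.985 (0.763 to 1.27). For both of these pan-endothelial markers KO F731 was close to the other 5 libraries, at 1.01 times their mean.

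Of the VEGF receptors, *Kdr*, the main signalling receptor, had the lowest log2 fold change of the surface group. Its CPM were 18.6, 18.1 and 18.9 in KO and 16.3, 22.7 and 24.2 in control, a log2 fold change of -0.18 (SE 0.16, unadjusted p of edgeR 0.296). The KO values were close together and above the lowest control. *Flt1*, which encodes a receptor that binds VEGF with little signalling, stood at 4.37, 4.69 and 5.78 CPM in KO and 3.89, 5.53 and 4.79 CPM in control (ratio 1.03, 0.751 to 1.43). *Flt4*, the receptor of VEGF-C, overlapped between groups in the same way apart from KO F731, whose 6.47 CPM was 2.03 times the mean of the other 5 libraries.

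The TIE receptors *Tie1* and *Tek* (TIE2, the receptor that the angiopoietins bind) overlapped between the groups. *Tie1* had 11.3, 11.3 and 15.1 CPM in KO and 10.3, 14.1 and 13.3 CPM in control. *Tek* had 4.46, 4.12 and 8.95 CPM in KO and 3.51, 5.09 and 5.91 CPM in control, so that its log2 fold change went from 0.24 (SE 0.34) over 6 libraries to -0.17 (SE 0.23) without KO F731. KO F731 was highest for both, and control F722 lowest.

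The other 5 surface genes were *Egfl7* (a secreted factor of endothelium that hosts the microRNA miR-126), *Esam* (a junctional adhesion protein), *Emcn* (the sialomucin endomucin), *Eng* (the TGF-beta co-receptor endoglin) and *Robo4* (a roundabout receptor of endothelium). Their log2 fold changes ran from 0.03 to 0.43 over 6 libraries and from -0.20 to 0.02 without KO F731. KO F731 was the highest library for all 5 of them, and *Egfl7* there reached 25.9 CPM, against 10.6 to 14.8 CPM in the other 5 libraries. Exons of *Egfl7* overlap those of *Mir126a*, *Mir126b* and *Agpat2*, and those of *Eng* overlap *Fpgs*. The handling of reads in such overlaps was not given in the sources used here. These levels are less certain.

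Of the 6 endothelial transcription factors 0 passed the test. Their log2 fold changes ran from -0.35 to 0.43 over 6 libraries (2 above 0, 4 below), and all 6 were below 0 without KO F731, from -0.66 to -0.02. *Sox17*, an SRY-box factor of arterial endothelium, had the lowest of all 31 values. It lies on chromosome 1, from 4490931 to 4497354 on the minus strand. Its level was 1.6, 1.6 and 2.96 CPM in KO and 2.09, 2.57 and 2.96 CPM in control. KO F727 and F728 lay below every control, and KO F731 level with the highest control. The log2 fold change was -0.35 (SE 0.31, unadjusted p of edgeR 0.295) over 6 libraries and -0.66 (SE 0.22, unadjusted p 0.0193, adjusted p 1.00) without KO F731. At this level the values rest on 43 to 115 counts a library. *Sox17* was the only one of the 31 genes to pass the study's cutoff in either edgeR fit, without KO F731 alone, against 1.13% of all genes there.

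*Sox7*, a factor closely related to *Sox17*, gave 2.37, 2.43 and 3.10 CPM in KO and 2.67, 3.24 and 2.75 CPM in control, a log2 fold change of -0.15 (SE 0.21). *Fli1*, an ETS-family factor of endothelium and blood, was placed alike, with KO F727 and F728 at 2.09 and 1.86 CPM and the controls at 2.21 to 2.83 CPM. *Sox7*, *Sox17* and *Fli1* were thus the 3 genes whose 2 remaining KO libraries lay below all controls once KO F731 was set aside, a pattern that 6.91% of all genes had. *Sox18*, the third SRY-box gene of the set, lay between 5.25 and 6.13 CPM in all 6 libraries (ratio 1.01, 0.8 to 1.28). *Ets1* (14.9 ± 1.37 CPM in KO and 15.9 ± 2.80 in control, mean ± SD, n = 3) and *Erg* (3.18 ± 1.76 and 2.28 ± 0.351 CPM), both ETS-family factors, overlapped between groups. *Erg* was highest in KO F731, at 5.16 CPM, and its log2 fold change went from 0.43 to -0.07 without that library.

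Many endothelial genes are known targets of ETS factors, whose sites hold the core GGAA. The 250 bases upstream of the RefSeq start were therefore searched for GGAAG on both strands, for the 19 of the 32 genes whose start the table held (24 promoters, build GRCm38.p6). The letters occurred in 13 of the 24 promoters, against 64.1% of all 32851 mouse promoters of this length. The longer form CAGGAAG, which contains the first, was in 5 of the 24 (those of *Egfl7*, *Emcn*, *Erg* and *Robo4*), against 10.8%, and the SOX letters ACAAAG were in 4 of the 24, against 16.5%. A match marks letters, not a bound site. The windows of *Flt1* (chr5:147726012-147726261, minus strand) and *Eng* (chr2:32646345-32646594, plus strand) are shown as surface genes with matches, and that of *Cldn5* (chr16:18776597-18776846, plus strand) as the gene with the largest log2 fold change, which had none. They are written 5′ to 3′ on the gene's strand and end at the base before the start, with GGAAG or its reverse complement CTTCC in capitals.
Flt1: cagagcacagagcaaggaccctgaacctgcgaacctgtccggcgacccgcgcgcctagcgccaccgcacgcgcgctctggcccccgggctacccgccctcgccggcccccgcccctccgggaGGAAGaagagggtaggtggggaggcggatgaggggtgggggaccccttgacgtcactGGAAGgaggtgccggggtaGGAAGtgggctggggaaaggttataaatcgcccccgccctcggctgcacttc
Eng: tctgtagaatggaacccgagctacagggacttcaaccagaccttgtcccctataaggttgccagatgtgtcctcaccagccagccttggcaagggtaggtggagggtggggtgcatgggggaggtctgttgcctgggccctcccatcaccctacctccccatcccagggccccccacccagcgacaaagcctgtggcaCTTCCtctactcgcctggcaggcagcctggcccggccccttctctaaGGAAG
Cldn5: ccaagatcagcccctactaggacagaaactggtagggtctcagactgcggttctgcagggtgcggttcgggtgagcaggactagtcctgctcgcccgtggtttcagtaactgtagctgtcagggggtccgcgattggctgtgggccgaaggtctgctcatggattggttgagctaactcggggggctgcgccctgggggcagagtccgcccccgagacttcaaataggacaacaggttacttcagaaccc

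*Angpt1*, which encodes a TIE2 ligand known from mural and other perivascular cells, was the one gene of the set whose groups did not overlap. It lies on chromosome 15, from 42424723 to 42676977 on the minus strand of GRCm38. Its level was 17.4, 14.2 and 15.8 CPM in KO and 10.2, 11.96 and 11.4 CPM in control. Every KO library lay above every control, and KO F731 was the middle one of the 3. Of all tested genes, 3.86% had KO above control without overlap and 3.55% below, and without KO F731, where *Angpt1* was again the only gene of the set placed above, 7.3% had it above. The log2 fold change was 0.49 (SE 0.13), a ratio of 1.41 (95% interval 1.14 to 1.75), with an unadjusted p of 0.00630 and an adjusted p of 0.863 in edgeR. Without KO F731 it was again 0.49 (SE 0.13, unadjusted p 0.00719), and it stayed between 0.41 and 0.56 whichever library was left out. In DESeq2 the adjusted p was 0.960 over 6 libraries and 0.454 without KO F731. An exact permutation test of the 6 CPM values, two-sided, gave 0.1, the smallest p that 3 against 3 embryos allow. The difference therefore failed the correction over all genes in every fit. Which cells of the forebrain carried it cannot be told apart in whole tissue. Exons of *Angpt1* overlap those of *Gm17473*, an antisense gene model that has no row in the table, over 737 bases.

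*Angpt2*, a context-dependent antagonist of TIE2 that endothelial tip cells make, did not follow *Angpt1*. It stood at 1.65, 1.65 and 2.55 CPM in KO and 1.51, 2.23 and 1.73 CPM in control, a log2 fold change of 0.06 (SE 0.29) over 6 libraries and -0.15 (SE 0.24) without KO F731. The difference between both genes was not tested.

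**Figure D3:**
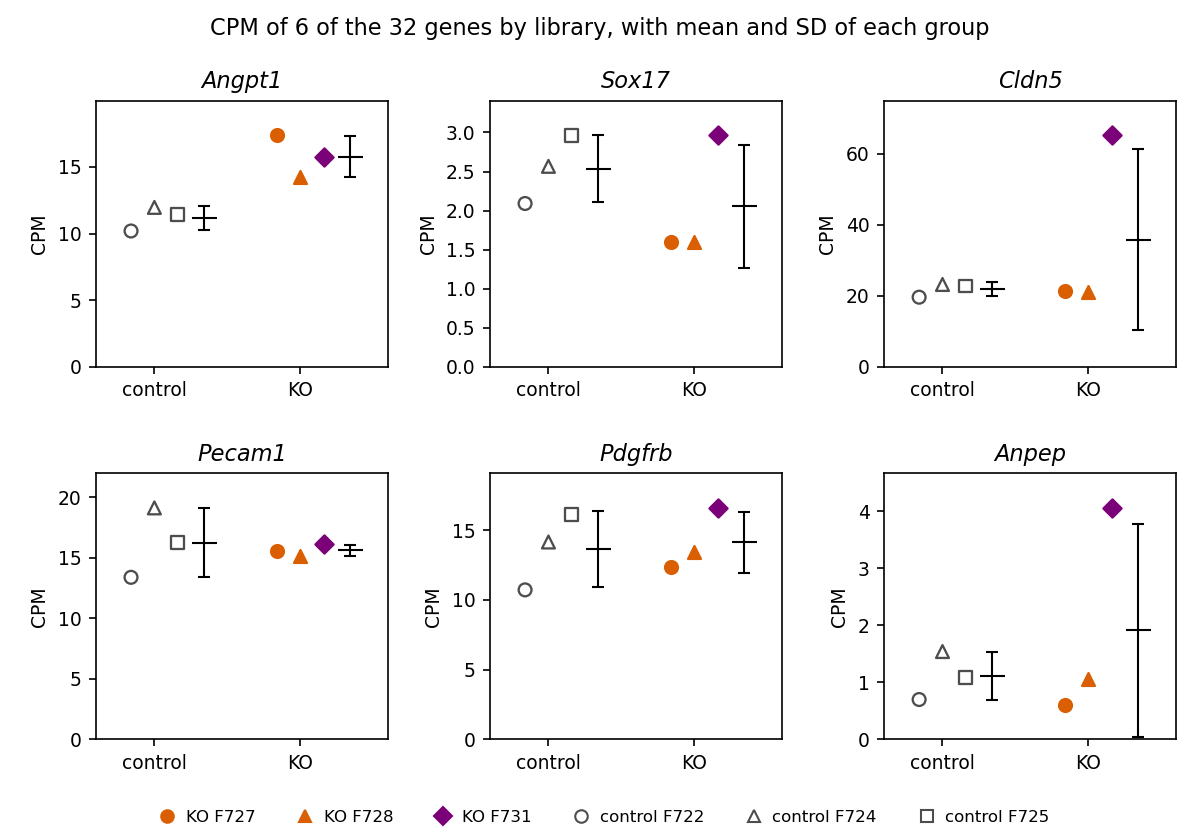
CPM in each library for 6 of the 32 genes (open, control; filled, KO), with the mean and SD of each group beside the points. The groups were apart for *Angpt1*, KO F727 and F728 lay below the controls for *Sox17*, and KO F731 alone lay far above the rest for *Cldn5* and *Anpep*.

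The 5 barrier and transport genes did not pass the test, with log2 fold changes from -0.06 to 0.69 over 6 libraries and from -0.16 to 0.07 without KO F731. *Cldn5*, the main claudin of the tight junctions of brain endothelium, had the largest log2 fold change of the 31 genes, at 0.69 (SE 0.43, unadjusted p of edgeR 0.143). It is a gene of 1 exon on chromosome 16, from 18776847 to 18778262 on the plus strand. Its level was 21.2, 21.1 and 65.2 CPM in KO and 19.6, 23.2 and 22.8 CPM in control. KO F731 alone was high, at 3.02 times the mean of the other 5 libraries, while KO F727 and F728 lay within the controls. Without KO F731 the log2 fold change was -0.05 (SE 0.10), a ratio with a 95% interval of 0.817 to 1.14.

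*Mfsd2a*, a lipid transporter of brain endothelium that holds down transcytosis, varied little. It had 31.4, 32.2 and 28.2 CPM in KO and 32.5, 27.1 and 31.7 CPM in control (ratio 1.01, 0.831 to 1.22). *Slc7a5* (LAT1), a transporter of large neutral amino acids, lay between 84.5 and 101 CPM in all libraries (ratio 0.957, 0.807 to 1.14). Neither gene was highest in KO F731. *Mfsd2a* was highest in control F722 and lowest in control F724, whereas without KO F731 control F722 was the lowest library for 20 of the 31 genes. Which cells carried the level of *Mfsd2a* was not tested. *Slc7a5* is also expressed by neural progenitors, so its level in whole forebrain is not that of vessels alone. The low genes *Ocln* (occludin of tight junctions) and *Abcb1a* (the efflux pump P-glycoprotein) reached 0.523 to 1.72 and 1.37 to 3.30 CPM, with their highest value in KO F731, and *Ocln* rested on as few as 18 counts. Exons of *Abcb1a* overlap those of *Gm42686*, on the opposite strand, over 553 bases.

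The 6 tested pericyte genes did not pass it either, with log2 fold changes from -0.07 to 0.68 over 6 libraries and from -0.42 to -0.07 without KO F731. *Pdgfrb*, the PDGF receptor by which pericytes are recruited, stood at 12.4, 13.4 and 16.6 CPM in KO and 10.7, 14.1 and 16.1 CPM in control. Both groups covered nearly the same range, and the ratio was 1.03 (95% interval 0.761 to 1.39). *Rgs5*, a regulator of G-protein signalling that marks pericytes, had 5.64, 3.63 and 7.57 CPM in KO and 3.51, 6.85 and 6.79 CPM in control. Each group of *Rgs5* had libraries near the low and the high end, and the log2 fold change was -0.05 (SE 0.34) over 6 libraries and -0.31 (SE 0.33) without KO F731.

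*Kcnj8* and *Abcc9* encode the pore (Kir6.1) and the regulatory subunit (SUR2) of the potassium channel of pericytes. *Kcnj8* had 2.81, 2.88 and 4.61 CPM in KO and 2.38, 3.88 and 3.64 CPM in control (log2 fold change 0.03, SE 0.28), and *Abcc9*, which shares exons with the antisense gene *5330439B14Rik*, 7.73 ± 0.755 CPM in KO and 8.05 ± 2.26 CPM in control (SD, n = 3). Both subunits were thus lowest in control F722. The proteoglycan gene *Cspg4* (NG2) gave 4.68 ± 1.61 CPM in KO and 3.93 ± 0.471 in control. It was highest in KO F731, at 6.54 CPM, and its log2 fold change went from 0.22 to -0.07 without that library.

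*Anpep*, which encodes the aminopeptidase CD13, had the second largest log2 fold change, 0.68 (SE 0.70, unadjusted p of edgeR 0.359). It came from KO F731 alone, with 0.605, 1.06 and 4.06 CPM in KO against 0.697, 1.54 and 1.09 CPM in control. Without KO F731 the value was -0.42 (SE 0.41). *Higd1b*, a mitochondrial gene that marks pericytes, did not pass the filter. It had 8, 8 and 21 counts in KO and 5, 10 and 8 in control, the highest again in KO F731, the shallowest library. Every one of the 32 genes had counts in every library.

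Per kilobase of exon (GENCODE vM21 on GRCm38), the levels in control ran from 25.6 ± 2.10 CPM per kb for *Slc7a5* (SD, n = 3) to 0.218 ± 0.0879 for *Ocln*. *Cldn5* (15.5 ± 1.38) and *Mfsd2a* (13.52 ± 1.29) came next after *Slc7a5*, ahead of *Esam* (5.70 ± 0.3) and *Eng* (3.73 ± 0.508). *Cdh5* and *Pecam1* stood at 3.24 ± 0.542 and 2.61 ± 0.461 CPM per kb, and the highest pericyte gene, *Pdgfrb*, at 2.49 ± 0.498. Of the 31 pairs of neighbours in this order, 28 overlapped in their control libraries. The 3 that did not were *Slc7a5* and *Cldn5*, *Mfsd2a* and *Esam*, and *Esam* and *Eng*. *Kdr* (2.33 ± 0.468 CPM per kb) lay above *Flt1* (0.351 ± 0.0610) and *Flt4* (0.382 ± 0.0498) in every control library, and *Tie1* (2.56 ± 0.406) above *Tek* (1.03 ± 0.259). *Angpt1* (2.15 ± 0.174) lay above *Angpt2* (0.495 ± 0.1).

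**Figure D4:**
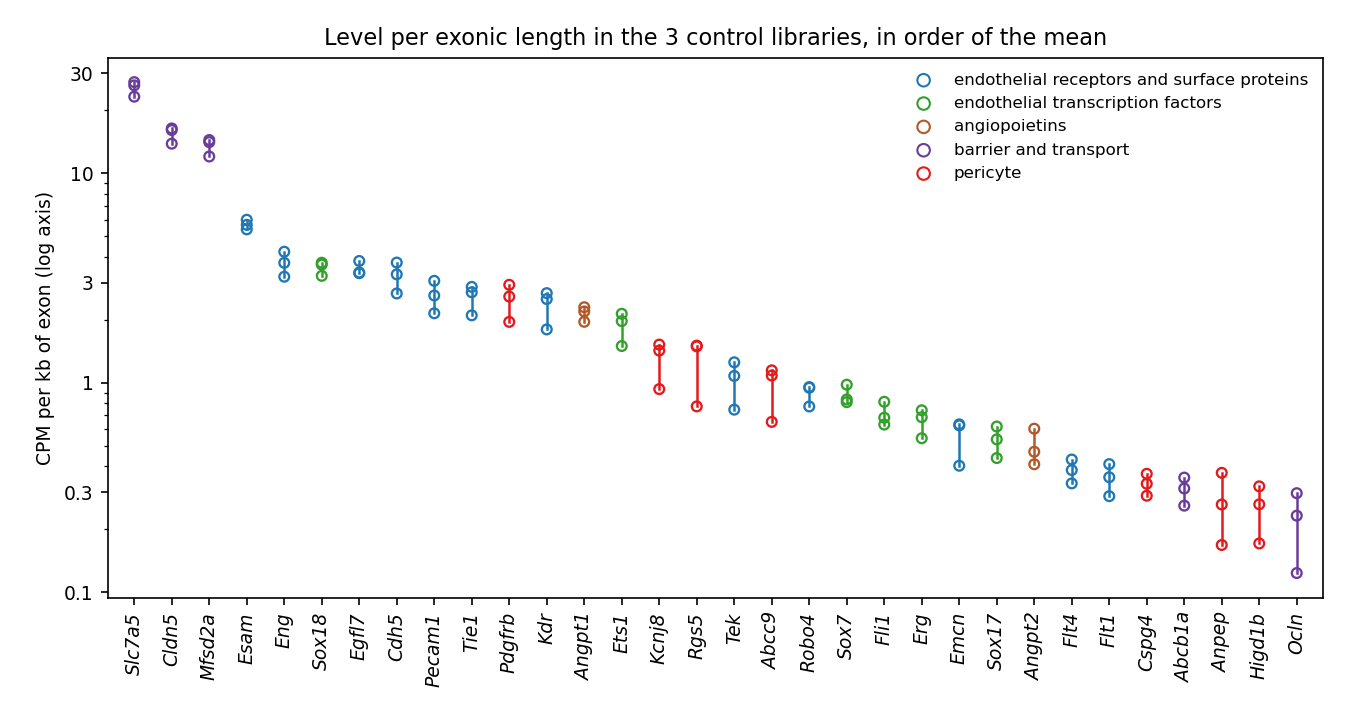
CPM per kb of exon (log axis) in the 3 control libraries, with genes in order of their mean and coloured by role; lines join the lowest and highest library. *Slc7a5*, *Cldn5* and *Mfsd2a* lay above all other genes, and neighbours below *Eng* overlapped.

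KO F731 was the highest library for 22 of the 31 tested genes, against 38.4% of all genes, and above 1.5 times the mean of the other 5 libraries for 11 of them, against 19.6%. Its median ratio to that mean was 1.33 over the 31 genes, 1.27 for the endothelial and barrier genes and 1.46 for the pericyte genes, against 0.993 over all genes. The ratio varied widely within the set, from 0.893 for *Slc7a5* and 0.909 for *Mfsd2a* to 3.02 for *Cldn5* and 4.07 for *Anpep*. Genes of low level were high in KO F731 as a whole: with the 14427 tested genes that matched GENCODE in 5 equal bins of mean CPM, the median ratio in the lowest bin was 1.72, and the 8 genes of the set there had 1.70. In the next bin, with 18 of the set, it was 1.00 for all genes and 1.25 for the set. Within their bins, *Cldn5* lay above 99.9% of the genes, *Egfl7* above 96.1%, *Flt4* above 95.9% and *Tek* above 95.3%. Those were the highest of the set. The lowest were *Sox7*, above 24.2%, *Fli1* (30.7%), *Sox17* (35.4%), *Angpt2* (39.5%) and *Slc7a5* (45.0%). All others lay between *Cdh5* (51.2%) and *Cspg4* (92.0%). The ratio also fell with exonic length over all genes, from 1.31 in the bin of shortest genes to 0.811 in that of the longest, whereas the genes of the set had a median of 1.07 in the bin of the shortest (*Cldn5*, *Mfsd2a* and *Sox18*) and of 1.17 in that of the longest (*Abcc9*, *Cspg4*, *Ets1*, *Flt1*, *Flt4* and *Kdr*).

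Markers of other cells moved with KO F731. The summed CPM of 14 red blood cell genes was 5940 there and 1669 to 2057 in the other 5 libraries, although some globin genes are near-identical and share reads. The 10 microglia and macrophage genes summed to 70.6 CPM, against 32.5 to 36.8, the 11 meningeal fibroblast genes to 153, against 58.2 to 128, and the 9 choroid plexus genes to 43.3, against 24.2 to 41.2. The 14 forebrain neural genes summed to 5344 CPM, against 5544 to 6217. Of these markers only *Aldh1a2* (meninges) and *Kcne2* (choroid plexus) were at 0 counts, both in control F722. Their part in the levels of the 32 genes in KO F731 was not tested.

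The other libraries also differed in a shared way. Without KO F731, control F722 was the lowest library for 20 of the 31 genes, against 23.9% of all genes, and control F724 the highest for 18, against 21.8%. The 7 pericyte genes summed to 26.4 CPM in control F722, 40.1 in F724 and 41.4 in F725, with KO F727 and F728 between at 33 and 31.9 and KO F731 at 49.4. The 12 surface genes summed to 108, 141 and 134 CPM in the same controls and to 114, 127 and 163 CPM in KO, and the 6 transcription factors to 26.8, 35.4 and 33.1 CPM against 28.7, 27.2 and 36.6 CPM. The meningeal sum was also low in control F722 (61.1 CPM) and in KO F727 (58.2 CPM). Its part in the vascular levels was not tested. The barrier genes, of which *Slc7a5* makes the largest share, kept to a narrow range, with 140, 151 and 159 CPM in control and 147, 152 and 183 CPM in KO.

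**Figure D5:**
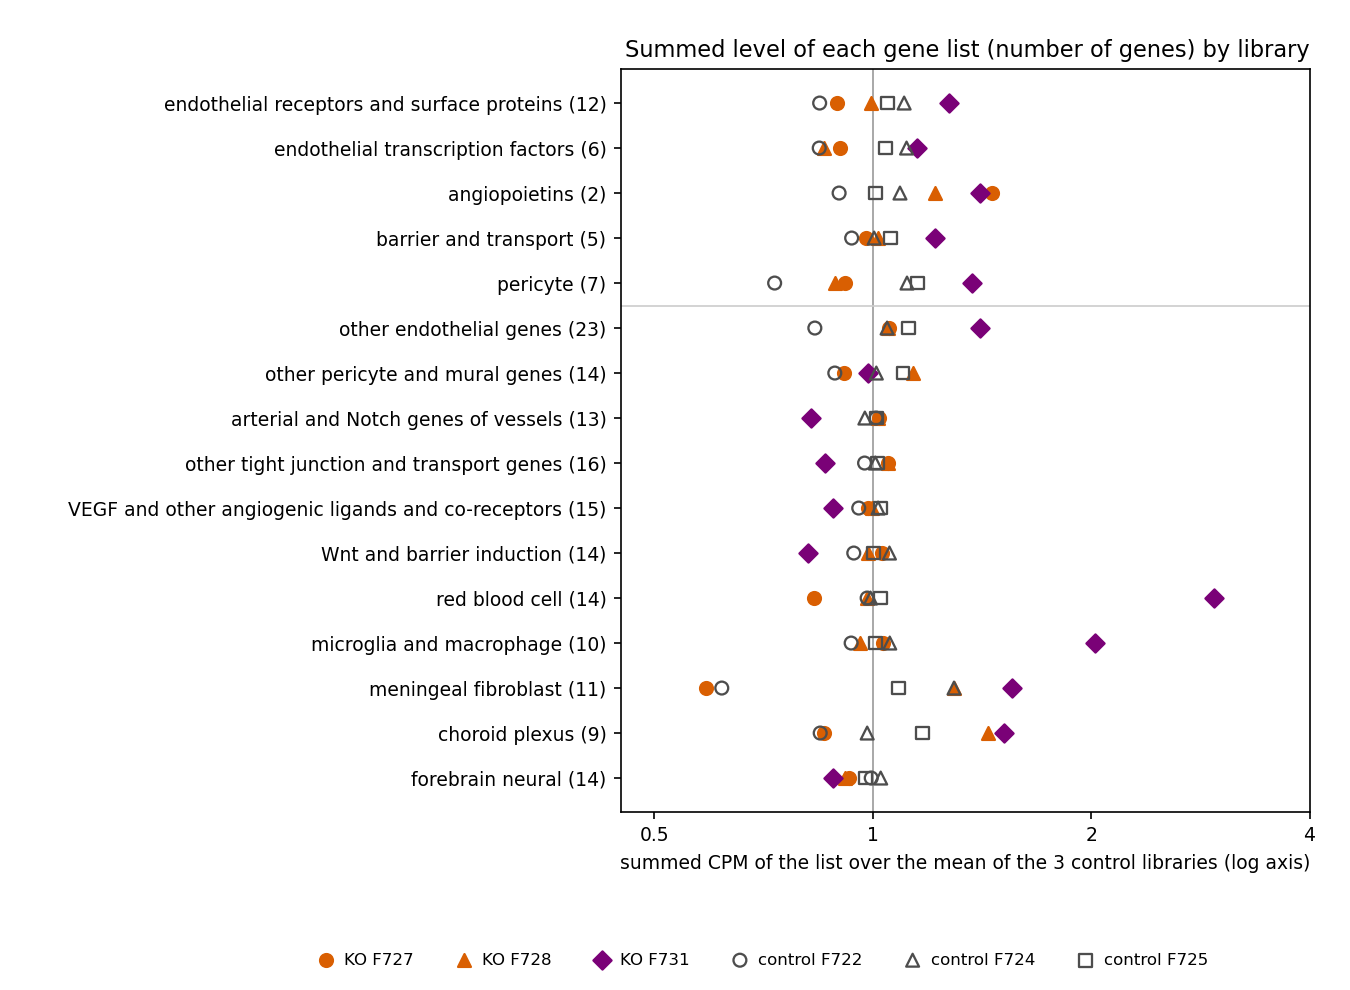
Summed CPM of each list over its mean in the 3 control libraries (log axis) for each library, with the number of genes in brackets; the lists above the line are the 32 genes. KO F731 was highest for 4 of the 5 lists of the 32 genes and for the other endothelial genes, stood farthest out for red blood cell and microglia genes, and was lowest for the arterial and Notch, tight junction and transport, VEGF and Wnt lists.

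Other genes of the same pathways were read from lists chosen by symbol, and edgeR called 0 of them at an adjusted p under 0.05. Of 22 other endothelial genes tested, 21 were above 0 over 6 libraries and 8 without KO F731, with medians of 0.15 and -0.03. Of 12 other pericyte and mural genes, 9 were above 0 with KO F731 and 3 without it. Other lists did not follow. They hold genes that cells outside the vessels also express, such as *Jag1* and *Slc2a1*, so their levels are not those of vessels alone. Of 12 arterial and Notch genes, 8 were above 0 both with and without KO F731, and of 15 other tight junction and transport genes 6 were with it and 9 without it. The summed CPM of both lists was lowest in KO F731, at 564 against 669 to 700 for the arterial and Notch genes and 481 against 547 to 590 for the tight junction and transport genes. *Cd34*, a sialomucin of endothelium and blood progenitors, had 22.2 ± 4.74 CPM in KO and 21.7 ± 4.24 in control (SD, n = 3), and *Plvap*, which makes the diaphragms of leaky vessels and goes down as the barrier forms, 6.42 ± 1.59 and 6.56 ± 0.380 CPM. The pericyte gene *Vtn* (vitronectin) gave 9.98 ± 4.78 CPM in KO and 7.89 ± 1.75 in control, and *Notch3*, a Notch receptor of mural cells that is also expressed by neural progenitors, 58.2 ± 21.1 and 64.0 ± 4.41 CPM.

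The genes of signals that reach the vessels from the neural tissue did not pass the test. *Vegfa*, the main growth factor of vessels, had 43.6, 59.3 and 21.1 CPM in KO and 45.6, 48.8 and 41.6 CPM in control, lowest in KO F731, where most of the 32 genes were highest. The barrier-inducing ligand genes *Wnt7a* (75.3 ± 13.9 CPM in KO, 63.1 ± 2.19 in control) and *Wnt7b* (158 ± 38.9 and 142 ± 5.70 CPM) were highest in KO F731. *Slc2a1*, the glucose transporter GLUT1 of brain endothelium and of many other cells, had 96.3 ± 9.76 and 97.9 ± 4.33 CPM. Of 15 VEGF and other angiogenic genes, 9 were above 0 with KO F731 and 8 without it, and of 14 Wnt and barrier induction genes 8 were in either case. Their summed CPM was also lowest in KO F731, at 351 against 381 to 408 for the VEGF list and 1722 against 1989 to 2227 for the Wnt list.

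In these lists 3 genes had an unadjusted p under 0.05 in edgeR, against 1.92% of all genes. They were 1 of 12 arterial and Notch genes, 1 of 12 other pericyte and mural genes and 1 of 22 other endothelial genes. The tight junction, VEGF and Wnt lists had none. *Jag1*, a Notch ligand made by endothelium, smooth muscle and neural progenitors, had 12.8, 12.8 and 11.8 CPM in KO and 15.3, 15.4 and 17.6 CPM in control. Its log2 fold change was -0.36 (SE 0.12, unadjusted p 0.0165). Every KO library lay below every control, as for 3.55% of all genes. *Acta2*, smooth muscle actin, had 0.275, 1.08 and 1.58 CPM in KO and 0.116, 0.379 and 0.374 CPM in control (log2 fold change 1.67, SE 0.71, unadjusted p 0.0485), with KO F727 below 2 of the 3 controls, on 4 to 46 counts a library. *Mecom*, a PRDM-family gene listed here for its expression in endothelium, had 12.6, 17 and 8.81 CPM in KO and 1.68, 3.97 and 3.23 CPM in control. Its log2 fold change was 2.12 (SE 0.35), with an adjusted p of 0.635 in edgeR and 0.000149 in DESeq2, and it was the only gene of these lists or of the 32 that DESeq2 called over 6 libraries. The lists were chosen with earlier results of these data known, so the place of *Mecom* among them is no sign of a change in endothelium. Other cells of the forebrain also express *Mecom*, and which of them carried the difference cannot be told apart in whole tissue.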

How the data were processed

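Forebrain RNA-seq counts of 3 KO and 3 control embryos at E13.5 were used. The authors deposited raw counts per gene of the iGenomes UCSC annotation, from reads trimmed by Trimmomatic and mapped on mm10 by HISAT2. The submitters' processing notes also name DESeq2, Bowtie2, limma and HOMER 4.10. How strand was treated in counting was not given in the sources used here. Another 18 columns of samples were left out.

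KO was compared with control in edgeR 4.0.16 under R 4.3.3 (TMM, filterByExpr with a minimum count of 10, robust glmQLFit and glmQLFTest), with Benjamini-Hochberg adjustment over all 15027 genes tested (15128 without KO F731) and a threshold of 0.05. The standard error is the size of the log2 fold change over the square root of F. If each library came from 1 embryo, as the animal numbers are read here, the SD holds the spread between embryos together with that between libraries. The tests take the libraries as replicates. Intervals are at 95%. The alternatives were DESeq2 1.42.0, limma-voom 3.58.1 with and without sample quality weights, RLE and upper-quartile scaling, other filters, other thresholds and leaving out each library. The scripts were tested on simulated counts. All pairs of libraries differed by more than counting noise.

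The members and lists were chosen with earlier results of these data known. Per-library values are given for defining markers set by name, for genes with an unadjusted p under 0.05 and for the 3 largest and the 3 smallest log2 fold changes. Positions and exonic lengths come from GENCODE vM21 and promoters from RefSeq (GRCm38.p6), both matched by symbol. *Cldn5*, *Egfl7*, *Flt4*, *Tek*, *Ocln*, *Abcb1a*, *Fli1* and the genes of the level order were also described after their values were seen.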

Additional observations from a re-analysis of the deposited data

How the results depend on the processing

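No paired analysis was possible because the columns of the count table carry animal numbers and not the replicate numbers of the labels. With 3 embryos a group, counts from 5 (*Higd1b*) upward and the 32 genes at under 0.04% of all counts, small changes of the low genes were not detectable, and KO F731 had the lowest depth. Larger changes could also be missed, as the adjusted edgeR test did not call *Prdm16* at a ratio of 0.164. No gene of the set passed an adjusted p of 0.05 under any alternative, with the lowest adjusted p between 0.454 and 1.00, and 1 passed at an unadjusted p in the main setting, with 1 to 3 in the others (3 with sample quality weights or without KO F727). Over all genes, calls went from 0 to 18 in DESeq2, 12 in limma-voom with sample quality weights and 1 with no filter, to 289 at an unadjusted p and 154 with a fold over 1.5 as well, and from 0 to 33 with a library left out. The highest value came from DESeq2 without KO F731. The median of all genes moved to 0.15 in DESeq2 and 0.13 with no filter. The median of the pericyte genes also turned in limma-voom (-0.014) and with no filter (-0.0017). *Angpt1* stayed above 0 and *Sox17* below 0 in all of them.

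The sign of these small log2 fold changes turned as follows. Sample quality weights gave values of -0.11 (*Flt1*), -0.0078 (*Flt4*), -0.28 (*Tek*), -0.11 (*Emcn*), -0.11 (*Eng*), -0.21 (*Robo4*), -0.17 (*Erg*), -0.039 (*Sox18*), -0.18 (*Angpt2*), -0.045 (*Cldn5*), -0.41 (*Ocln*), -0.22 (*Abcb1a*), -0.16 (*Pdgfrb*), -0.30 (*Kcnj8*), -0.098 (*Cspg4*) and -0.39 (*Anpep*). Plain limma-voom gave -0.0069 (*Eng*), -0.032 (*Robo4*), -0.032 (*Angpt2*) and -0.066 (*Kcnj8*). No filter gave -0.013 (*Eng*), -0.021 (*Sox18*), -0.025 (*Mfsd2a*), -0.0017 (*Pdgfrb*) and -0.020 (*Kcnj8*). Upper-quartile scaling gave 0.0055 (*Cdh5*) and 0.017 (*Tie1*), the filter at 1 CPM 0.0081 (*Tie1*), and DESeq2 -0.00061 (*Mfsd2a*). The cause was not tested.

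With a library left out, the ranges that crossed 0 were -0.19 to 0.071 (*Pecam1*), -0.15 to 0.096 (*Cdh5*), -0.078 to 0.18 (*Flt1*), -0.16 to 0.076 (*Tie1*), -0.17 to 0.44 (*Tek*), -0.0025 to 0.29 (*Esam*), -0.037 to 0.37 (*Emcn*), -0.098 to 0.15 (*Eng*), -0.20 to 0.29 (*Robo4*), -0.24 to 0.0076 (*Ets1*), -0.068 to 0.72 (*Erg*), -0.047 to 0.057 (*Sox18*), -0.15 to 0.24 (*Angpt2*), -0.052 to 0.96 (*Cldn5*), -0.16 to 0.54 (*Ocln*), -0.069 to 0.067 (*Mfsd2a*), -0.12 to 0.54 (*Abcb1a*), -0.11 to 0.17 (*Pdgfrb*), -0.31 to 0.19 (*Rgs5*), -0.22 to 0.17 (*Kcnj8*), -0.28 to 0.075 (*Abcc9*), -0.075 to 0.37 (*Cspg4*) and -0.42 to 1.12 (*Anpep*). The other 8 kept their sign. Of the 31 signs, 16 turned without KO F731, 7 each without control F722 or F724, and 3 each without any other library.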
